A study of Mus musculus with 2 samples.

Results

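The immediate early genes examined here were Egr1, Egr2, Egr3, Klf2, Klf4, Klf6, Nr4a1, Ier2, Ier5 and Btg2. They were taken by name, and every KAT8 peak with a base between 20 kb before and 20 kb after each gene was collected. These are 10 of the 21887 protein-coding genes that lie on chromosomes with peaks. The windows held 18 peaks of the library from R848-treated cells and 19 of the untreated library. The assay was CUT&Tag: an antibody against KAT8 tethers a transposase, which tags the DNA near the protein. The treated group was wild-type mouse macrophages given R848 at 100 ng/ml for 2 h (1 library), and the untreated group was the same kind of macrophages without R848 (1 library). Both were primary cells grown from bone marrow in 20 ng/ml M-CSF, the cytokine that drives macrophage differentiation. The sources used here do not give the strain, age or sex of the mice, or say whether animals were pooled. R848 is a small-molecule agonist of TLR7, a receptor for RNA in endosomes.

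Immediate early genes are transcribed within minutes of a signal, without new protein synthesis. Many carry promoters that are already open in resting cells, and MAP kinases act on them through the serum response factor SRF, which binds CArG boxes, and through CREB, which binds cyclic AMP response elements (CREs). KAT8 is a histone acetyltransferase that acetylates histone H4 and is the enzyme of the MSL and NSL chromatin complexes. In macrophages, EGR and KLF factors and the nuclear receptor encoded by Nr4a1 take part in differentiation and in tuning the inflammatory response.

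The R848 list held 44772 peaks and the untreated list 52001. For each peak the authors' caller gave a fold of the summit over background, a −log10 p and a −log10 q, which describe a peak within its own list. The lowest background was 2.62 fragments in the R848 list and 3.37 in the untreated list. It stands in for depth here, since read numbers were not used. Peak names in the R848 list carry the labels of both times, and no source says whether that list was called on the treated library alone. If untreated reads also entered it, the overlaps between the lists and the R848 folds, pileups and background given here would not describe treated cells alone. With 1 library on each side there is no replicate check of any difference, and no p-value is given. Of 8 macrophage marker genes, 4 had a peak within 1000 bp of the gene start in each list (Cebpa, Cebpb and Cd68 in both, Mertk in the R848 list, Spi1 in the untreated list). None of 4 T cell, 4 B cell, 4 granulocyte and 4 stromal marker genes had one in either list. Among all protein-coding genes 23.8% had one in the R848 list and 28.1% in the untreated list, so lists this short do not identify the cells. Csf1r, Adgre1 and Itgam, also among the macrophage markers, had none either. A peak does not measure expression of the gene.

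KAT8 peaks lay at the starts of most of these genes in both libraries. Starts were those of a promoter list, which held none for Egr1, Egr3 and Ier2, so both gene ends stood in for these. Within 1000 bp of a gene start, 7 of the 10 genes had an R848 peak, where 23.8% of all protein-coding genes had one, and 9 had an untreated peak, where 28.1% had one. The 7 with an R848 peak (Egr1, Egr2, Klf2, Klf6, Nr4a1, Ier2 and Btg2) also had an untreated peak that overlapped it. Of all genes 17.3% had a start peak in both lists, whether or not these overlapped. Klf4 and Ier5 had a start peak in the untreated list alone (10.9% of all genes did), none had one in the R848 list alone (6.47%), and Egr3 had none in either. With a distance of 3000 bp, Ier5 had a start peak in both lists and Egr3 in the R848 list alone. Among the 12099 protein-coding genes no longer than Nr4a1, the longest of the 10 at 20894 bp, the shares with a start peak were 20.5% for the R848 list, 24.2% for the untreated list, 14.5% for both, 9.62% for the untreated list alone and 6% for the R848 list alone. The genes were chosen with earlier results of these data known, so their counts are a description and were not tested.

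**Figure D1:**
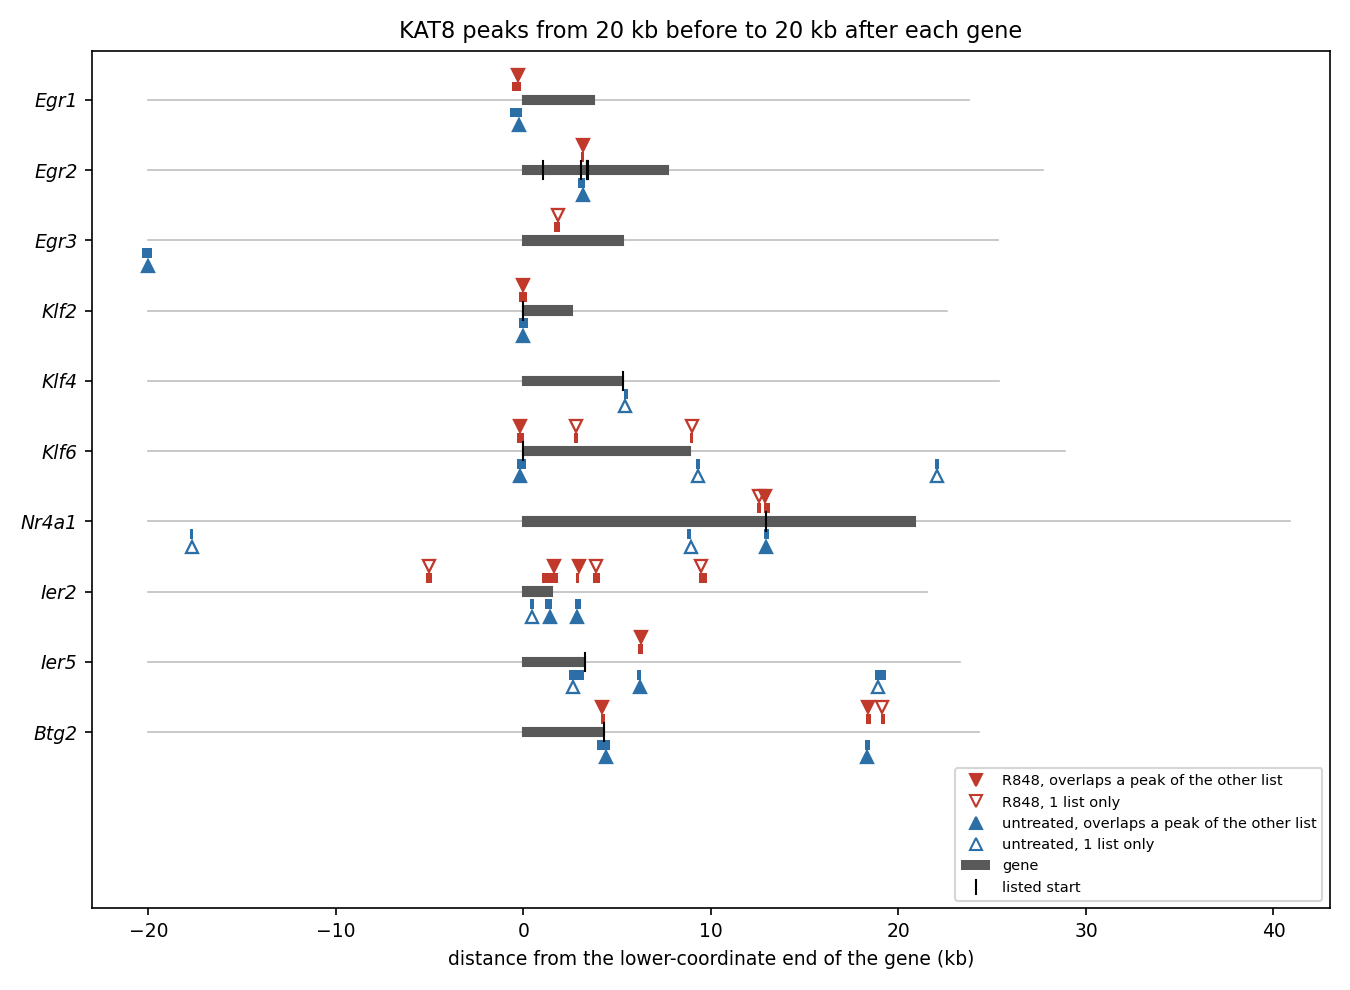
Map of the KAT8 peaks around the 10 genes. The x axis is the distance in kb from the lower-coordinate end of each gene, grey bars are genes and black ticks are listed starts. Red bars above each line are R848 peaks and blue bars below it are untreated peaks, drawn to scale, with a triangle at each summit that is filled where the peak overlaps one of the other list. Filled pairs stand at the starts of Klf2, Klf6, Btg2, Nr4a1 and Egr2 and beside the ends of Egr1 and Ier2.

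In the wide windows the counts stood closer to those of all genes. From 20 kb before to 20 kb after the gene, 9 of the 10 genes had an R848 peak, against 69.7% of all protein-coding genes, and all 10 had an untreated peak, against 74.4%. All but Klf4 had a peak in both lists (60.9% of all genes) and at least 1 peak that overlapped the other list (43.7%). Egr3 had its overlapping peak only at the edge of the window. Klf4 had an untreated window peak only (13.4% of all genes and 15% of those no longer than Nr4a1), and no gene had an R848 one only (8.81% and 10.4%). For genes no longer than Nr4a1 the other shares were 62.9% for R848, 67.5% for untreated, 52.5% for both lists and 37% for an overlapping peak. The median number of peaks in a window was 1 in the R848 list and 1.5 in the untreated list, and over all protein-coding genes it was 1 in each. Of the R848 peaks, 10 of 18 (55.6%, 95% exact binomial interval 30.8 to 78.5) overlapped an untreated peak by at least 1 bp. Of the untreated peaks, 11 of 19 (57.9%, 33.5 to 79.7) overlapped an R848 peak. Over all windows, where a peak counts once for each gene it is near, the shares were 39.8% and 34.6%. For genes no longer than Nr4a1 they were 43.8% and 37.8%. In the R848 list 7 of 8 peaks at gene starts overlapped the other list, and 3 of 10 away from starts did. In the untreated list these numbers were 7 of 10 and 4 of 9. The overlap was thus mostly at gene starts and not spread over the windows. The binomial intervals, and the Poisson intervals below, cover counting error alone. The binomial ones treat peaks as independent and alike, although several lay near the same gene. Overlap also rose with strength, from 14.5% of all R848 peaks with a −log10 p of 2 to 3 to 97.3% at 10 to 30.

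**Figure D2:**
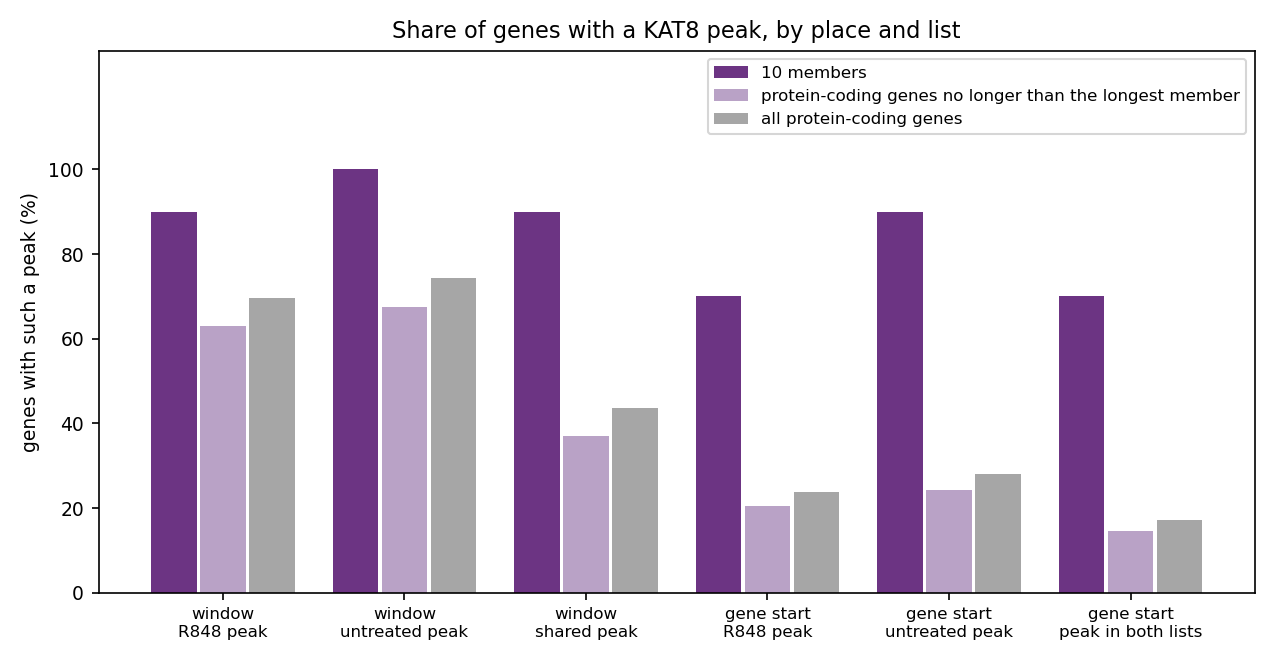
Share of genes with a KAT8 peak. Bars give the percentage of the 10 genes (dark), of protein-coding genes no longer than Nr4a1 (light) and of all protein-coding genes (grey), for windows of 20 kb either side and for 1000 bp around the start. At the start, the dark bars stand at 70% (R848), 90% (untreated) and 70% (both), against 23.8%, 28.1% and 17.3% for all genes.

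The promoter sequences are fixed windows before the listed starts, and the peaks covered only part of some of them. Of the 250 bases, the R848 peak covered 77 at Btg2 and 121 at Nr4a1, and the untreated peak 117 at Nr4a1. The promoter list used here (GRCm38.p6, the assembly of mm10) holds starts for 7 of the 10 genes. The 250 bases before the start are given for the 5 of these with a peak on those bases and a single listed start, 5′ to 3′ on the strand of the gene. Capitals mark CRE half-sites (TGACG on either strand, of which TGACGTCA is the full element) and EGR sites (GCGNGGGCG on either strand, which can overlap GC boxes, GGGCGG).
Klf2 (chr8:72318812-72319061, plus strand): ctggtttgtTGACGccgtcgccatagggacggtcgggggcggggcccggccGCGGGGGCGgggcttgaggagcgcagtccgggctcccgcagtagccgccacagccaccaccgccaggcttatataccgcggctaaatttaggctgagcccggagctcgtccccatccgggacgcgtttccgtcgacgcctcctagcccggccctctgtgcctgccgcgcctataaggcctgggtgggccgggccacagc
Klf6 (chr13:5861239-5861488, plus strand): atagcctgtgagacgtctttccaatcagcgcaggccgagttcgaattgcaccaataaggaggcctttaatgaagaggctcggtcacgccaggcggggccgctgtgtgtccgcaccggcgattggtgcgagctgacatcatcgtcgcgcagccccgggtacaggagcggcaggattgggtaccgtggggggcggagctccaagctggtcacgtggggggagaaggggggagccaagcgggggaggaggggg
Nr4a1 (chr15:101266596-101266845, plus strand): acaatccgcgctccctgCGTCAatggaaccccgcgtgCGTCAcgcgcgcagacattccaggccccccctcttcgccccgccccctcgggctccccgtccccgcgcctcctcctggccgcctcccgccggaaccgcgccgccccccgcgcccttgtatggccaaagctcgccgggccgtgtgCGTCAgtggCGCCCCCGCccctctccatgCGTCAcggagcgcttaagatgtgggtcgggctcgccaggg
Btg2 (chr1:134079156-134079405, minus strand): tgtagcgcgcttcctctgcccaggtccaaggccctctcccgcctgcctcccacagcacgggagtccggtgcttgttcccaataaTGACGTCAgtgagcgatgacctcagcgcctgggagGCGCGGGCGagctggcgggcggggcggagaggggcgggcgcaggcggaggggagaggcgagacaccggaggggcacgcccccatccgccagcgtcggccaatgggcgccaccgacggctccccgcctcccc
Klf4 (chr4:55532476-55532725, minus strand): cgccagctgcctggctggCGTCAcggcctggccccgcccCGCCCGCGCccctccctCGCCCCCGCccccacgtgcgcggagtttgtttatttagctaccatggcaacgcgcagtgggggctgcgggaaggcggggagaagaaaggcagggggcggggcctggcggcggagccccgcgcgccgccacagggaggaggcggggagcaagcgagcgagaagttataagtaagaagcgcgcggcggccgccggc

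A CRE half-site was found in the 250 bases before a start of 5 of these 7 genes (Btg2, Egr2, Klf2, Klf4 and Nr4a1). By start, 7 of their 11 listed starts had one, against 20.2% of the 21263 listed starts of protein-coding genes. The full CRE occurred at 1 of the 11, that of Btg2, and at 1.92% of all starts. EGR sites lay before 4 of the 11 (Btg2, Klf2, Klf4 and Nr4a1) and before 6.34% of all starts. GC boxes were found at all 7 genes, at 8 of the 11 starts and at 42.6% of all starts. Egr2 gives 5 of the 11, some with nearly the same bases, and so weighs most in these counts and in the medians below. The 11 listed starts of the 7 genes had a median GC content of 64.8% (54.0 to 74.4) over those bases, against 55.6% over all starts, and a median of 21 CpG dinucleotides against 10. A match of letters is a description of the window and not a binding site.

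Egr2 has 5 listed starts, and the summits of both lists lay between the CArG boxes of its promoters. The boxes, in capitals, stand 72 bases before the start at 67537566 and 72 bases before the next one, at 67537869, on the plus strand.
Egr2, first box (chr10:67537484-67537513): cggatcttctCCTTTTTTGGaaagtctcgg
Egr2, second box (chr10:67537787-67537816): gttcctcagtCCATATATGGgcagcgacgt
The first box ended 18 bp before the R848 peak and was inside the untreated peak. The second lay 77 bp beyond the end of the R848 peak and 57 bp beyond that of the untreated peak. CArG boxes were found before 1.39% of all listed starts, and Egr2 was the only one of the 7 genes to have any.

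The EGR genes encode zinc finger transcription factors that bind GC-rich sites. Egr1 (chromosome 18, 34861207 to 34864956) is the archetype of the family and one of the fastest genes to respond to MAP kinase signals. Its R848 peak covered 34860602 to 34861062 (461 bp, summit 34860920) with a fold of 3.77, a −log10 p of 6.47 and a −log10 q of 2.99. The untreated peak covered 34860520 to 34861131 (612 bp, summit 34860979) with a fold of 5.46, a −log10 p of 13.2 and a −log10 q of 9.28. The R848 peak lay wholly inside the untreated one, 145 bp below the lower end of the gene, and the summits were 59 bp apart. At the summits 15 fragments overlapped in the R848 library (95% exact Poisson interval 8.40 to 24.7) and 25 in the untreated library (16.2 to 36.9). Divided by the ratio of the lowest backgrounds, 1.29, the untreated pileup is 19.4 (12.6 to 28.7), so the intervals overlap.

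Egr2 (chromosome 10, 67534469 to 67542188), known for roles in myelination and in lymphoid and myeloid cells, had weaker peaks. The R848 peak covered 67537521 to 67537720 (200 bp, summit 67537630), with a fold of 2.76, a −log10 p of 3.40 and a −log10 q of 0.581. The untreated peak covered 67537382 to 67537740 (359 bp, summit 67537648), with a fold of 3.20, a −log10 p of 4.91 and a −log10 q of 1.75. Both lay inside the gene and spanned the start at 67537566, and only the untreated one passed a q of 0.05. Each was the sole peak of its list in the window, which also holds the gene Ado.

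Egr3 (chromosome 14, 70077317 to 70082613), a relative of Egr2, had no peak within 1000 bp of either gene end, which stood in for its start. Egr2 and Nr4a1 had none at the gene ends either, and their start peaks lay at listed starts inside the gene. Its R848 list entry was a weak peak inside the gene at 70078938 to 70079245 (308 bp, summit 70079182), with a fold of 2.42, a −log10 p of 2.70 and a −log10 q of 0.233. No untreated peak lay within 21434 bp of it, and 26878 of the 28736 R848 peaks without an untreated overlap were at least as significant. The untreated peak was at the far edge of the window, inside Pebp4 and the long non-coding RNA gene Gm33524, at 70056993 to 70057504 (512 bp, summit 70057312; fold 3.66, −log10 p 6.25, −log10 q 2.85). An R848 peak at 70057086 to 70057292 (fold 2.76, −log10 q 0.581) overlapped it just outside the window. The distant site was thus shared, and the peak in Egr3 was not.

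Among the KLF genes, Klf6 had the strongest start peak of the 10 genes in the R848 list and Klf2 in the untreated list. Klf2 (chromosome 8, 72319062 to 72321654) encodes a factor that restrains inflammatory activation of monocytes and endothelium. Its R848 peak covered 72318824 to 72319241 (418 bp, summit 72319061) with a fold of 4.19, a −log10 p of 7.26 and a −log10 q of 3.68. The untreated peak covered 72318852 to 72319290 (439 bp, summit 72319050) with a fold of 5.95, a −log10 p of 14.3 and a −log10 q of 10.3. The summits stood 1 bp (R848) and 12 bp (untreated) before the start, and no other peak lay in the window. The EGR site 199 bases before the start was under both peaks, and the CRE half-site at 241 bases lay across the edge of the R848 peak and outside the untreated peak. Pileups were 15 fragments in the R848 library and 25 in the untreated library, the same as at Egr1.

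Klf6 (chromosome 13, 5861489 to 5870393), a factor linked to inflammatory gene expression in macrophages, had 3 peaks in each list. At the start, the R848 peak covered 5861137 to 5861540 (404 bp, summit 5861317) with a fold of 4.70, a −log10 p of 8.51 and a −log10 q of 4.78. The untreated peak there covered 5861175 to 5861632 (458 bp, summit 5861329) with a fold of 3.20, a −log10 p of 4.91 and a −log10 q of 1.75. The summits were 12 bp apart, both before the start, at 172 bp (R848) and 160 bp (untreated). Klf6 is 1 of the 4 shared peaks, of 10, whose fold was the higher in the R848 list, with 16 fragments (9.15 to 25.98) in the R848 library and 13 (6.92 to 22.2) in the untreated library. Scaled by background the untreated pileup is 10.1 (5.38 to 17.3), which overlaps the R848 interval.

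The other peaks of Klf6 belonged to 1 list each. An R848 peak inside the gene covered 5864194 to 5864393 (200 bp, summit 5864311; fold 3.16, −log10 p 4.43, −log10 q 1.36). Another crossed the far end of the gene at 5870361 to 5870560 (200 bp, summit 5870456; fold 3.04, −log10 p 4.03, −log10 q 1.01), and an untreated peak began 123 bp after it, at 5870683 to 5870882 (200 bp, summit 5870794; fold 2.98, −log10 p 4.28, −log10 q 1.26). The last, in the untreated list, lay 13047 bp beyond the gene at 5883440 to 5883664 (225 bp, summit 5883547; fold 2.52, −log10 p 3.12, −log10 q 0.462). Only the first of these 4 passed a q of 0.05. By the overlap rule, the start peak is the one site of Klf6 found in both lists.

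Klf4 (chromosome 4, 55527137 to 55532475), a pluripotency factor that also acts in monocyte differentiation, was the only gene of the 10 without an R848 peak in its window. The untreated list had 1 peak, at 55532494 to 55532734 (241 bp, summit 55532559), with a fold of 2.98, a −log10 p of 4.28 and a −log10 q of 1.26. Its summit stood 84 bp before the start, and it reached the first bases of the long non-coding RNA gene Gm12506, listed on the opposite strand. The CRE half-site and both EGR sites of the printed sequence lay under it. Its pileup was 12 fragments (6.20 to 21.0), or 9.33 (4.82 to 16.3) when scaled to the R848 background. The lowest R848 pileup called anywhere in the list was 7, which need not be the threshold at this site. Of the 35905 untreated peaks with no R848 overlap, 12862 were at least as significant, and the nearest R848 peak was 74278 bp away.

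**Figure D3:**
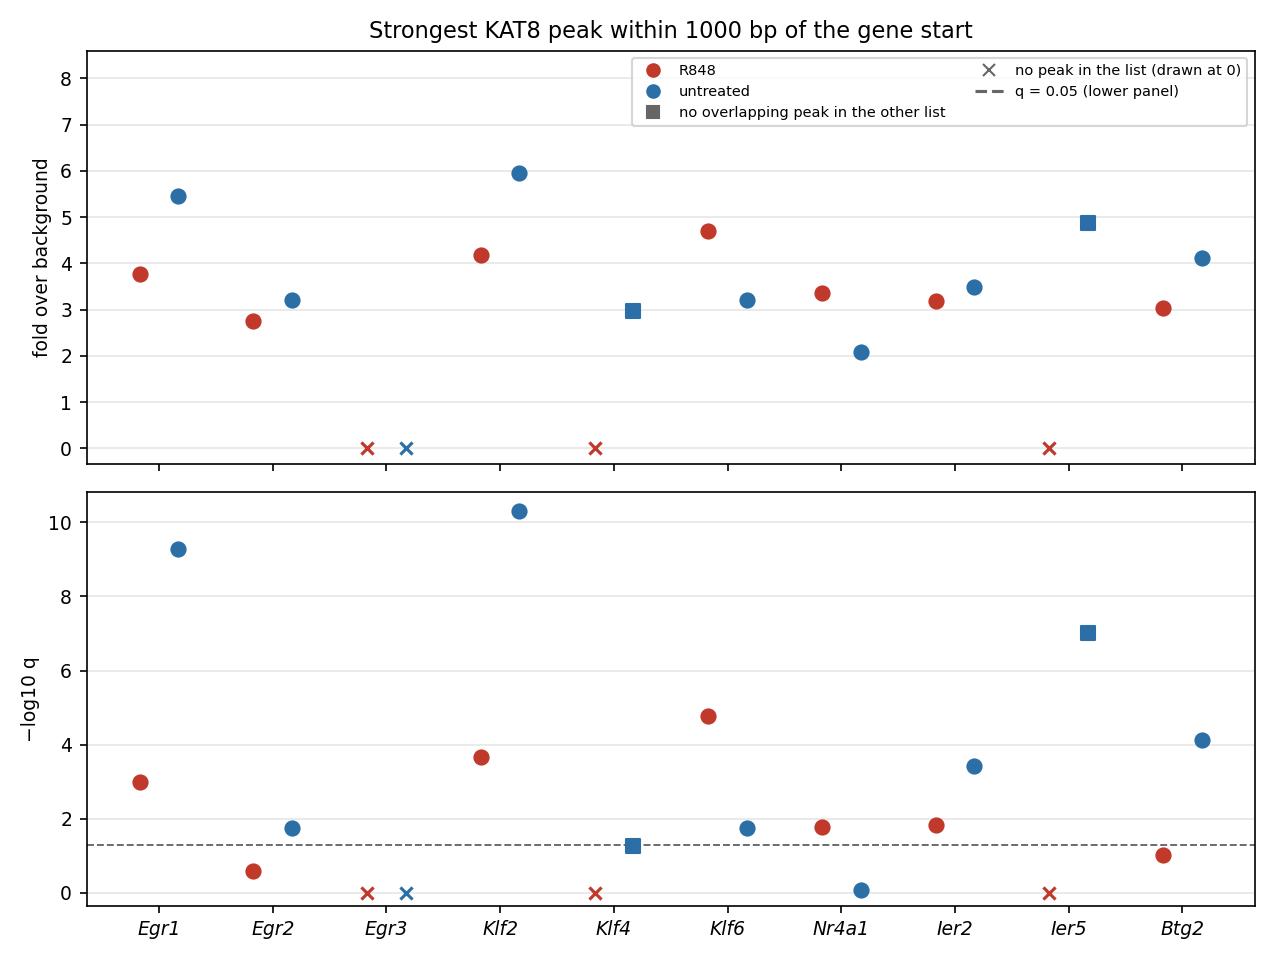
Strongest KAT8 peak within 1000 bp of the start of each gene. The upper panel gives the fold over background and the lower panel −log10 q, with R848 (red) left of untreated (blue) for each gene; squares are peaks with no overlapping peak in the other list, crosses mark lists with no peak, and the dashed line is a q of 0.05. The highest R848 −log10 q is 4.78, at Klf6, and the untreated peaks of Klf2, Egr1 and Ier5 reach 10.3, 9.28 and 7.01.

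Nr4a1 (chromosome 15, 101253902 to 101274795) encodes Nur77, an orphan nuclear receptor needed by patrolling monocytes. Its peaks clustered at the listed start at 101266846, which lies inside the annotated span of the gene. In the R848 list, 1 peak covered 101266725 to 101267053 (329 bp, summit 101266781) and a second lay just upstream at 101266362 to 101266561 (200 bp, summit 101266451). Both had a fold of 3.37, a −log10 p of 5.01 and a −log10 q of 1.79. The untreated peak at the start covered 101266729 to 101266986 (258 bp, summit 101266858) with a fold of 2.09, a −log10 p of 2.25 and a −log10 q of 0.0667. It is among the weakest of its list, since only 1.36% of untreated peaks had a lower −log10 p. It lay wholly inside the R848 peak, and both covered the EGR site and the CRE half-sites at 69 and 40 bases before the start. The half-sites at 233 and 213 bases were covered by neither, and fell between the R848 peaks. Pileups at the start were 12 (6.20 to 21.0) in the R848 library and 9 (4.12 to 17.1) in the untreated library, and the untreated value is 6.997 (3.20 to 13.3) when scaled.

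The remaining untreated peaks of Nr4a1 were weak and had no R848 overlap. One lay inside the gene at 101262639 to 101262838 (200 bp, summit 101262827; fold 2.40, −log10 p 2.91, −log10 q 0.442). The other lay 17603 bp below the gene at 101236100 to 101236299 (200 bp, summit 101236233; fold 2.52, −log10 p 3.12, −log10 q 0.462). Both R848 peaks at the start passed a q of 0.05, and none of the 3 untreated peaks did.

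Ier2 (chromosome 8, 84661331 to 84662852), a small nuclear protein gene induced by growth factors, had the most peaks of the 10 genes, 5 in the R848 list and 3 in the untreated list. A broad R848 peak at 84662309 to 84663178 (870 bp, summit 84662943; fold 3.18, −log10 p 5.06, −log10 q 1.84) crossed the upper end of the gene. It contained the untreated peak at 84662510 to 84662871 (362 bp, summit 84662748; fold 3.50, −log10 p 6.85, −log10 q 3.41). The summits of this pair were 195 bp apart, on either side of the gene end.

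A second shared site of Ier2 lay beyond the same end. The R848 peak there covered 84664115 to 84664314 (200 bp, summit 84664297; fold 2.77, −log10 p 3.88, −log10 q 1.00). The untreated peak covered 84664091 to 84664402 (312 bp, summit 84664212; fold 3.51, −log10 p 6.88, −log10 q 3.44) and enclosed it. The R848 library had 14 fragments (7.65 to 23.5) at the gene end and 12 (6.20 to 21.0) beyond it, and the untreated library had 19 (11.4 to 29.7) at each, or 14.8 (8.89 to 23.1) scaled. The intervals of the libraries overlapped at both sites.

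Ier2 also had 4 peaks of 1 list. In the R848 list they were at 84665029 to 84665399 (371 bp, summit 84665228; fold 2.67, −log10 p 3.54, −log10 q 0.703), at 84656150 to 84656433 below the gene (284 bp, summit 84656287; fold 2.49, −log10 p 2.81, −log10 q 0.233) and inside Nacc1 at 84670693 to 84671147 (455 bp, summit 84670815; fold 3.04, −log10 p 4.03, −log10 q 1.01). The untreated list had 1 inside Ier2 at 84661683 to 84661913 (231 bp, summit 84661786; fold 2.44, −log10 p 3.38, −log10 q 0.688). None of these 4 passed a q of 0.05. The local background at the peaks in Ier2 and beside its upper end was 3.50 to 3.72 fragments in the R848 library and 4.70 to 4.74 in the untreated library, above the lowest values of 2.62 and 3.37.

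Ier5 (chromosome 1, 155096367 to 155099636), which encodes a regulator of the heat shock factor HSF1, carried the strongest peak of 1 list among the 10 genes. The untreated list had a peak of 808 bp at 155098776 to 155099583 (summit 155099021) with a fold of 4.87, a −log10 p of 10.8 and a −log10 q of 7.01. It lay inside the gene, with its summit 615 bp after the start, and no R848 peak was called within 2879 bp. Of the 35905 untreated peaks with no R848 overlap, 69 had a −log10 p at least as high, and 94.3% of all untreated peaks with a −log10 p of 10 to 30 did overlap one. Its pileup was 22 fragments (13.8 to 33.3), which scales to 17.1 (10.7 to 25.9). The lowest called R848 pileup of 7 belongs to the whole list and need not be the threshold at this site. Whether depth or the threshold accounts for the missing R848 peak was not tested. The R848 pileup at this site was not analysed here, since the list holds no peak there.

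Upstream of Ier5 the libraries shared a site. The R848 peak covered 155102462 to 155102733 (272 bp, summit 155102614) with a fold of 4.14, a −log10 p of 6.91 and a −log10 q of 3.34. The untreated peak covered 155102441 to 155102649 (209 bp, summit 155102574) with a fold of 3.40, a −log10 p of 5.73 and a −log10 q of 2.43. Their summits were 40 bp apart, 2978 bp (R848) and 2938 bp (untreated) before the start. Pileups were 14 fragments (7.65 to 23.5) in the R848 library and 15 (8.40 to 24.7) in the untreated library, where the scaled value is 11.7 (6.53 to 19.2). One more untreated peak, inside the long non-coding RNA gene Gm41981 at 155115144 to 155115711 (568 bp, summit 155115254; fold 3.43, −log10 p 5.57, −log10 q 2.28), had no R848 overlap. At Ier5, then, the upstream site was in both lists and the peak within the gene was in the untreated list alone.

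Btg2 (chromosome 1, 134074865 to 134079155) encodes an antiproliferative protein that recruits the CCR4-NOT deadenylase to messenger RNA. At its start the R848 peak covered 134079023 to 134079232 (210 bp, summit 134079052; fold 3.04, −log10 p 4.03, −log10 q 1.01). The untreated peak covered 134078796 to 134079472 (677 bp, summit 134079293; fold 4.12, −log10 p 7.69, −log10 q 4.11) and enclosed it. The summits were 241 bp apart, the widest distance of the shared pairs, with the R848 summit 103 bp after the start and the untreated one 138 bp before it. The full CRE, 166 bases before the start, and the EGR site at 131 bases lay beyond the R848 peak and under the untreated peak. Pileups were 10 (4.80 to 18.4) in the R848 library and 17 (9.90 to 27.2) in the untreated library, or 13.2 (7.70 to 21.2) scaled.

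A distal cluster of Btg2 lay inside the long non-coding RNA gene Gm32039. The R848 list had peaks at 134093139 to 134093404 (266 bp, summit 134093265; fold 3.59, −log10 p 5.41, −log10 q 2.07) and at 134093925 to 134094147 (223 bp, summit 134094007; fold 3.57, −log10 p 5.37, −log10 q 2.07). The untreated list had 1 peak, at 134093091 to 134093345 (255 bp, summit 134093206; fold 2.52, −log10 p 3.12, −log10 q 0.462), which overlapped the first. Both R848 peaks passed a q of 0.05 and the untreated peak did not, the reverse of the start of Btg2, where only the untreated peak did.

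Across the 10 pairs of overlapping peaks within the windows, summits were 11 to 241 bp apart (median 59). The fold was the higher in the R848 list at 4 pairs (the starts of Klf6 and Nr4a1, the site upstream of Ier5 and the distal site of Btg2) and in the untreated list at the other 6. Background, which stands in for depth, differs between the lists, so these folds are no measure of a change. Pileups ran from 9 to 16 fragments in the R848 library and from 9 to 25 in the untreated library. After scaling for background, the counting intervals of the libraries overlapped at all 10 pairs. Overlap of intervals is not a test of a difference, and these sites were picked for having a peak in both lists.

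**Figure D4:**
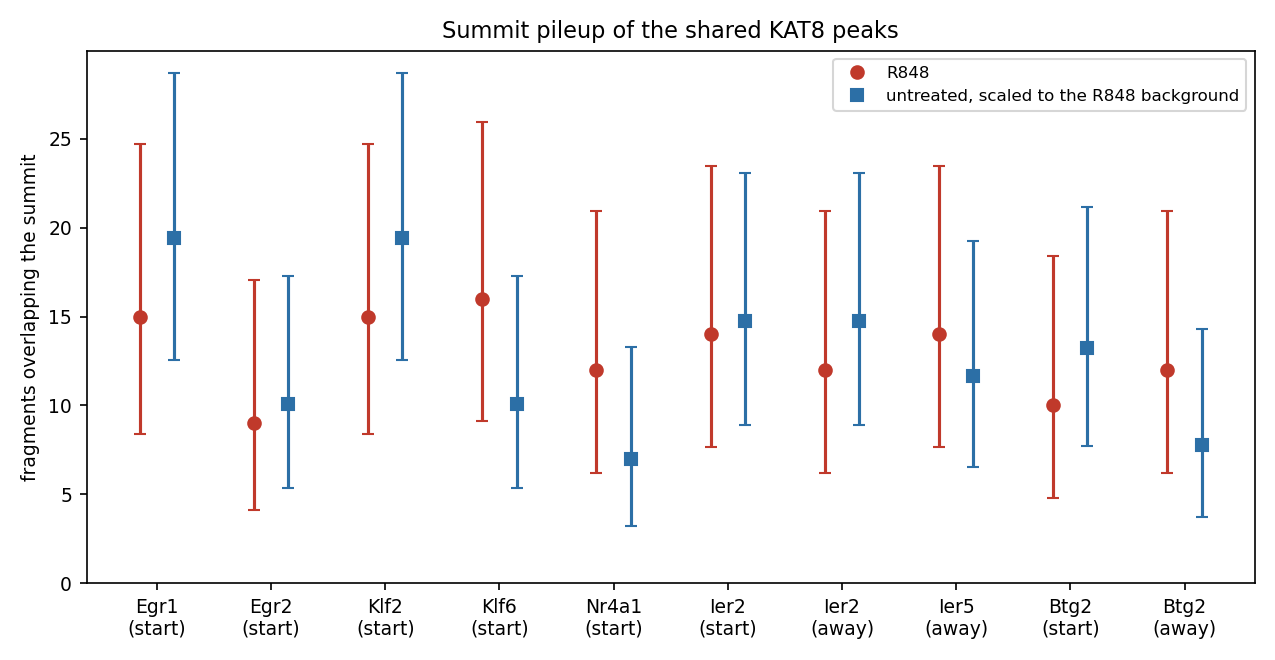
Summit pileup of the 10 shared peaks within the windows. Points give the fragments overlapping the summit in the R848 library (red circles) and in the untreated library after division by 1.29 (blue squares), bars are 95% exact Poisson intervals, and labels say whether the site is within 1000 bp of the gene start. Klf6 is highest in the R848 library (16) and Egr1 and Klf2 in the untreated library (19.4 each), with overlapping bars throughout.

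The peaks of 1 list were mostly weak. Of 8 such R848 peaks 3 passed a q of 0.05, and of 8 such untreated peaks 2 did, both at Ier5 or upstream of it. In all, 10 of the 18 R848 peaks and 11 of the 19 untreated peaks passed it, where 41.1% of all R848 peaks and 36.3% of all untreated peaks did. Widths ran from 200 to 870 bp in the R848 list and from 200 to 808 bp in the untreated list.

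Start peaks in both lists were found at 7 of 14 other Klf genes and 9 of 14 other early response genes. They were also found at 2 of 7 genes linked to EGR or SRF (Egr4, Nab1, Nab2, Srf, Elk1, Elk3 and Elk4). Among all protein-coding genes 17.3% had them. Overlap was not required in these counts. The strongest start peaks of Klf1 and Ier3 overlapped no peak of the other list. Of 14 other Klf genes, 7 had an R848 start peak and 9 an untreated one, with Klf9 (fold 2.75) and Klf15 (2.85), both metabolic and hormone-responsive factors, in the untreated list alone. Klf16 had the highest fold, 11.6 in both lists, and Klf7 had 5.80 (R848) and 4.58 (untreated). Of 14 other early response genes, 11 had an R848 start peak and 9 an untreated one. Nr4a3, a relative of Nr4a1 (4.08), and Ppp1r15a, a phosphatase subunit of the stress response (3.04), had theirs in the R848 list alone. Sgk1, a kinase gene induced by serum and glucocorticoid (4.52 in the R848 list, 7.57 in the untreated list), and Mcl1, a survival factor gene (5.23 and 6.01), had theirs in both. Of the 7 genes linked to EGR or SRF, which include the corepressor Nab2 and Srf, 3 had an R848 start peak and 2 an untreated one. Elk4, an SRF cofactor (3.04), had one in the R848 list alone, and 4 had none in either list. These counts stand beside the 23.8% (R848) and 28.1% (untreated) of all protein-coding genes, and the lists were chosen with earlier results known.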

How the data were processed

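KAT8 CUT&Tag was deposited as 1 peak list per library, 1 R848 and 1 untreated library. Tools in the submitters' processing notes are MACS2 2.2.7.1, Bowtie 0.12.8 and DiffBind, and the build is mm10; their roles, the caller settings and any control library are not stated there. Peak names in the R848 list carry both time labels, which no source explains, so whether it was called on the treated library alone is not known. Per the deposited files, each peak has a score (10 times −log10 p, to within 1), −log10 of p and of q, a ratio (the fold of the summit over background) and a summit.

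Overlap meant at least 1 bp (Python 3.11.15; checked with bedtools 2.31.1). Pileup and background were solved from the fold, (pileup + 1) / (background + 1), together with the Poisson probability behind p. They returned −log10 p within a relative 0.001 for 99.8% of peaks in both lists. On 7027 simulated peaks, made with the same formula and not drawn from these lists, all pileups were recovered. The simulation checks the arithmetic only. Gene spans came from RefSeq GRCm38.p6. Where no start is listed (Egr1, Egr3 and Ier2), both gene ends stood in. The genes and lists were chosen with earlier results of these data known. All 10 genes are named; from the comparison lists, those with a start peak in 1 list alone and the 4 with the highest fold in both, by the higher value. Alternatives were q of 0.05, −log10 q of 5, equal list lengths, other windows, distances and overlap rules. Added after seeing the data were gene ends for all 10, untreated pileups scaled by 1.29, and q of 0.05 in 1 list with any q in the other. No value has a test, since each group has 1 library.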

Additional observations from a re-analysis of the deposited data

How the results depend on the processing

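Of 79 recomputed counts, 61 stayed within 1.5 times the reported one, and 18 moved further, all under a stricter q or a window of 50 kb. With only peaks of q up to 0.05, the windows held 10 R848 and 11 untreated peaks, 5 of each overlapped the other list, 5 genes had a shared peak, and 4 genes (Egr1, Klf2, Klf6 and Ier2) had a start peak in both lists; Egr2 and Btg2 then had it in the untreated list alone and Nr4a1 in the R848 list alone. With −log10 q of at least 5, the R848 list had 0 peaks in any window, so 0 were shared, 0 genes had an R848 window or start peak and 0 had both, while 3 untreated peaks remained, at the starts of 3 genes (Egr1, Klf2 and Ier5). Windows of 50 kb held 31 R848 and 32 untreated peaks. Egr3 lost its shared peak with windows of 5 kb, with the summit required in the window, and with an overlap of 50% of each peak. Each of these left 8 genes with a shared peak. The first and second of them left 9 genes with an untreated window peak. Nr4a1 lost its untreated start peak with lists of equal length and, as an alternative added after seeing the data, with untreated pileups scaled to the R848 background, which left 6 genes with a start peak in both lists. With either gene end in place of listed starts, also added, 5 genes had an R848 and 7 an untreated start peak, since those of Egr2 and Nr4a1 lie inside the gene. Klf4 and Ier5 had their start peak in the untreated list alone under each setting, except that Klf4 had none with a q of 0.05 or stricter and Ier5 had both with a distance of 3000 bp. That distance also gave Egr3 a start peak in the R848 list alone, and Nr4a1 had one in that list alone under the settings named for it. No paired analysis was possible because each group has 1 library. Calling thresholds, and depth as far as background stands in for it, limit the comparison. The lowest called pileups were 7 (R848) and 8 (untreated) fragments, so a site in 1 list alone can hold signal below the threshold in the other.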
